A study of Homo sapiens with 18 samples.

Results

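The 80 genes described here encode the proteins of the cytosolic ribosome. They were chosen by symbol alone: a protein-coding row of the count table belonged to the group when its RefSeq identifier mapped to an RPL or RPS symbol with a number, or to RPLP0, RPLP1, RPLP2 or RPSA. The rule uses no measured value, but it was set with earlier results of these data known. The 80 genes are 80 of 20802 gene rows, 49 of them for the large subunit and 31 for the small subunit. Every group consisted of RKO cells, an established human colorectal carcinoma line, harvested 72 h after transfection of siRNA at 30 nM. The nontargeting siRNAs were siCtrl#1 and siCtrl#2, and the on-target siRNAs were siTsg101#1 and siTsg101#2 against TSG101 and siVps28#1 and siVps28#2 against VPS28, with 3 biological replicates of each, or 18 libraries. TSG101 and VPS28 encode subunits of ESCRT-I, a complex that sorts ubiquitinated membrane proteins into endosomal vesicles for degradation in lysosomes. The question was whether the ribosomal protein genes moved as a set, or one by one, after ESCRT-I depletion, with siCtrl#1 as the reference.

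A ribosome joins a small subunit, which decodes the messenger RNA, to a large subunit, which forms the peptide bond. Each protein is needed in about equal number, so that ribosomal protein genes are usually expressed together and at high level in dividing cells. Their transcripts typically start with a C followed by an uninterrupted pyrimidine tract, the 5′ terminal oligopyrimidine (TOP) motif, through which mTORC1 and LARP1 control their translation and stability. The lysosome surface is where mTORC1 is activated by amino acids.

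The TOP-like start was looked for in RefSeq promoters of GRCh38.p14, which run from 250 bases before to 50 bases from each annotated start and were held for 64 of the 80 genes. At any annotated start, 45 of the 64 (70.3%) had a C at the first base followed by at least 4 more C or T on the transcript strand, against 5.14% of all 27305 genes in the promoter table and 7.63% of the 8432 tested genes found there. A run of at least 7 pyrimidines within 10 bases of the start was held by 50 of the 64 (78.1%) and by 17.7% of all genes. The following windows cover 10 bases before to 20 bases from the annotated start, with the pyrimidine run that begins at the first transcribed base in capitals. They are shown because these genes carry the changes described below or make the contrast with them. RPL8 and RPL23, also described below, had no promoter in the table.

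RPL24 (chromosome 3, 101686699 to 101686728, minus strand): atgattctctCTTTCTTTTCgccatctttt
RPL35A (chromosome 3, 197950180 to 197950209, plus strand): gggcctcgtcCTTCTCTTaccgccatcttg
RPL39 (chromosome X, 119791611 to 119791640, minus strand): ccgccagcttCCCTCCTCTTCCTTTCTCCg
RPL13 (chromosome 16, 89560672 to 89560701, plus strand): gggccgcttcCTTTCCgctcggctgttttc
RPS16 (chromosome 19, 39435930 to 39435959, minus strand): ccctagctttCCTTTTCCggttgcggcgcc
RPLP0 (chromosome 12, 120201092 to 120201121, minus strand): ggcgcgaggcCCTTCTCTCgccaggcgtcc
RPS7 (chromosome 2, 3575250 to 3575279, plus strand): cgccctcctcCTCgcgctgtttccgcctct
RPS27L (chromosome 15, 63157458 to 63157487, minus strand): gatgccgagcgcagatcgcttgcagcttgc

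The first 6 windows carry a TOP-like start of 6 to 19 pyrimidines. RPS7 has a run of only 3 from its annotated start. Further pyrimidines stand directly before that base, and RPS7 met the looser rule of at least 7 near the start. RPS27L, a paralog of RPS27, met neither rule. A TOP-like start thus occurred in genes called higher against siCtrl#1 with both siTsg101 siRNAs (RPL24, RPL35A, RPL39). It also occurred in genes called lower with siTsg101#1 only (RPL13, RPS16). Further letters were searched on both strands of the 300 bases. The ETS-like letters CCGGAAG were found in 23 of the 64 genes (35.9%, against 12.2% of all genes and 24.7% of tested genes). The E-box, CACGTG, was found in 4 genes (6.25%, against 8.77% of all and 13.3% of tested genes), and its longer form TCACGTGA, which overlaps it, in 0 of 64 (against 1.18% of all and 2.57% of tested genes). The TATA box, TATAAA, was found in 6 genes (9.38%, against 14.0% of all and 7.57% of tested genes). The YY1-like letters AAGATGGCG were found in 5 genes (7.81%, against 2.14% of all and 5.31% of tested genes). These are matches of letters and say nothing about binding.

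**Figure D1:**
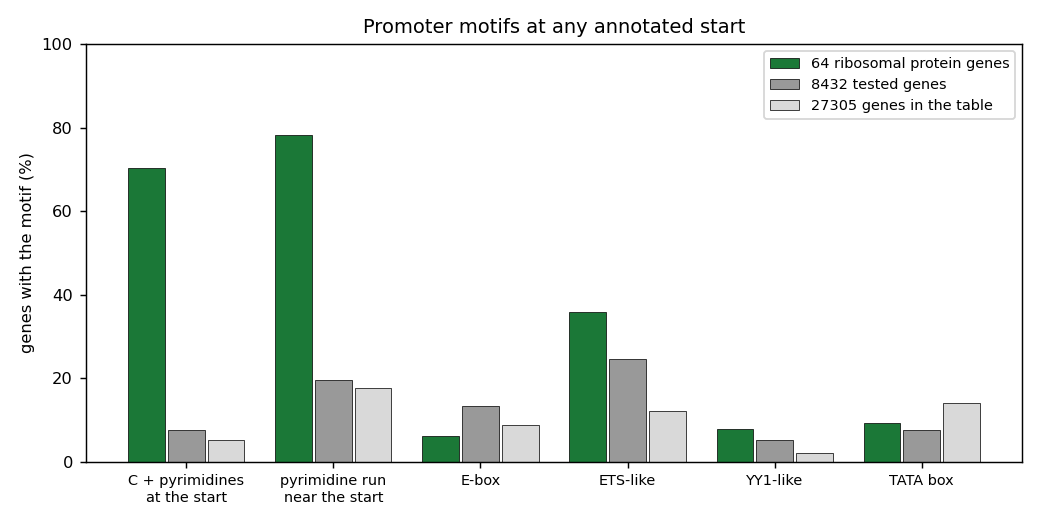
Percentage of genes whose promoter holds each sequence motif at any annotated start, for the 64 ribosomal protein genes with a promoter in the table (green), the 8432 tested genes (grey) and all 27305 genes (light grey). The C with pyrimidines at the start was held by 70.3% of the ribosomal protein genes and 5.14% of all genes.

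Between 2561790 and 7466916 reads per library were assigned to genes (median 5022216). The panel amplifies a short stretch of each transcript, so that changes were tested between libraries for each gene. Shares of reads among genes are described below, but need not follow RNA amounts. TSG101 had 2.49 to 4.99 TMM-scaled CPM (edgeR's unit of reads relative to the counted reads of the library) in the 6 siTsg101 libraries and 74.5 to 166.6 in the other 12, and VPS28 had 3.48 to 7.78 CPM in the 6 siVps28 libraries and 65.1 to 111.9 in the other 12. Both targeted genes therefore followed the labels in every library. Of 9 epithelial markers listed for colon, KRT18, KRT8, EPCAM and CDX2 passed 100 counts over all libraries, CDH1 was at 0, and KRT19, KRT20, CDX1 and VIL1 had 6 counts or fewer. Of 8 markers of leukocytes, fibroblasts and endothelium, 0 passed 100 counts and 4 were at 0, with a summed level of at most 1.47 CPM in any library. In the siTsg101 libraries, 5.29% to 5.68% of all reads fell below the counting program's mapping quality limit, against 4.85% to 5.06% in the siCtrl and 4.71% to 5.05% in the siVps28 libraries, and the part of this difference in the results below was not tested.

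Reads on the 80 genes made up 12.5% to 14.8% of all counted reads in the 18 libraries, with a median of 13.2%. The 95% Wilson interval of this share was at most 0.0809 percentage points wide in any library and covers counting error only, without molecular identifiers. The share was 14.0, 13.3 and 14.8% with siCtrl#1 (mean 14.0% ± 0.723, SD, n = 3) and 13.2, 12.7 and 13.0% with siCtrl#2 (mean 13.0% ± 0.266, SD, n = 3). With siTsg101#1 it was 12.5, 12.6 and 12.9% (mean 12.7% ± 0.219, SD, n = 3), and with siTsg101#2 it was 13.6, 13.6 and 14.3% (mean 13.8% ± 0.398, SD, n = 3). The siVps28#1 libraries held 13.4, 13.3 and 14.2% (mean 13.6% ± 0.500, SD, n = 3) and the siVps28#2 libraries 13.2, 12.9 and 13.2% (mean 13.1% ± 0.155, SD, n = 3). All 3 siTsg101#1 libraries lay below all siCtrl#1, siTsg101#2, siVps28#1 and siVps28#2 libraries, but overlapped those of siCtrl#2. The share with both siTsg101 siRNAs was 0.263 percentage points below that of both nontargeting siRNAs, and the share with both siVps28 siRNAs 0.133 points below. The SD was 0.766 among the 6 nontargeting libraries, which pool 2 siRNAs, and 0.423 pooled within the 6 groups. These are SDs of single libraries and not the error of a difference between means. Against siCtrl#1 alone the differences were -0.803 and -0.673 points, and against siCtrl#2 alone they were 0.276 and 0.407 points, so that their sign was set by the nontargeting siRNA used. Within replicate numbers 1, 2 and 3, siTsg101#1 was 1.5, 0.746 and 1.89 points below siCtrl#1, and siCtrl#2 was 0.773, 0.674 and 1.79 points below it. In bulk RNA, fewer cells that express a gene and less of its RNA per cell cannot be told apart.

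The large subunit genes held 7.83% to 9.44% of counted reads and the small subunit genes 4.44% to 5.35%. The log2 ratio of large to small subunit reads was 0.78 ± 0.07 (SD, n = 3) with siCtrl#1 and 0.74 ± 0.03 (SD, n = 3) with siCtrl#2. It was 0.79 ± 0.07 and 0.78 ± 0.02 with the siTsg101 siRNAs and 0.74 ± 0.04 and 0.74 ± 0.07 with the siVps28 siRNAs (SD, n = 3 each). The 6 groups overlapped throughout, between 0.66 and 0.86. The difference on this log2 scale was 0.02 between siTsg101 and both nontargeting siRNAs, -0.02 between siVps28 and both, and 0.04 between siTsg101 and siVps28. The SD was 0.05 among the 6 nontargeting libraries and 0.06 pooled within the 6 groups. These are SDs of single libraries and not the error of a difference between means. Within replicate numbers 1, 2 and 3 the mean ratio of the siTsg101 libraries lay above that of the siVps28 libraries each time, by 0.08, 0.03 and 0.02, while against the nontargeting libraries it differed by 0.08, -0.02 and 0.02.

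**Figure D2:**
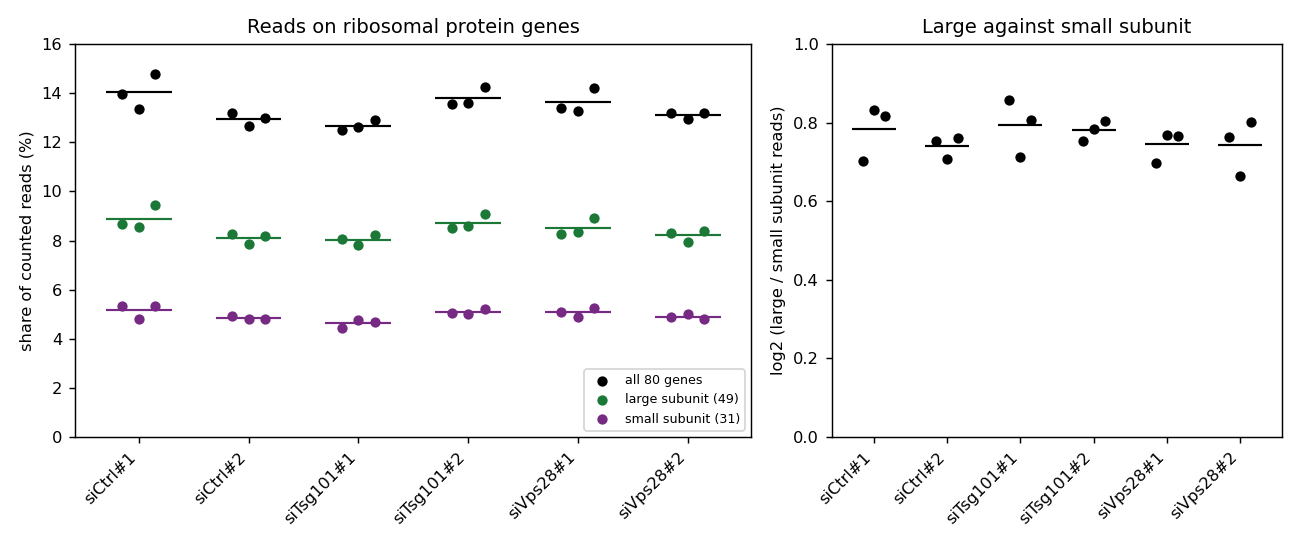
Left, share of all counted reads (%) on the 80 ribosomal protein genes (black), the 49 large subunit genes (green) and the 31 small subunit genes (purple) in each library, with replicates 1 to 3 from left to right and the group mean as a line. Right, log2 ratio of large to small subunit reads. The siTsg101#1 libraries hold 12.5% to 12.9% and the siCtrl#1 libraries 13.3% to 14.8%, while the ratio overlaps in all 6 groups.

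Reads were spread unevenly over the 80 genes, which need not reflect their RNA amounts. RPL4, whose protein lines the nascent peptide tunnel, held 6.74% of the reads of the group, and the 10 genes with the most reads held 37.7%. At least 1000 reads in every library were counted for 54 genes. The 73 genes with more than 100 counts over all libraries, 44 of the large and 29 of the small subunit, entered the tests. The 7 others were RPL3L with 0 reads in all, RPL39L and RPSA with 1 each, RPL13A with 3, RPL10L with 9, RPL21 with 16 and RPS24 with 62. The 0 reads of RPL3L allow at most 0.0324 CPM. RPL3L, RPL10L and RPL39L are paralogs known mainly from muscle or testis. RPSA, RPL13A, RPL21 and RPS24 are general ribosomal subunits, and their whole coding sequence was found at 95% identity or more elsewhere in the GRCh37 genome, at 16, 7, 32 and 2 other places in turn. For 59 of the 80 genes at least 99% of the coding sequence had such a copy and 55 of these were tested, and for 17 genes no copy was found and 14 were tested. Reads of a gene with near-identical copies can be split among them or lost, and which stretch the panel reads was not known. Exons of 26 of the 80 genes also overlap a gene on the other strand, whose reads cannot be told apart where strand is not used.

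Most of the tested genes stayed within 1.5-fold of siCtrl#1. With siTsg101#1, 18 of the 73 (24.7%) differed at an adjusted p under 0.05 in edgeR's quasi-likelihood test, against 26.3 percent of all 10212 tested genes. Of these, 7 were higher and 11 lower, against 13.8 and 12.5 percent of all genes. This balance of directions depended on the nontargeting siRNA. Against siCtrl#2, 9 were higher and 3 lower (9.97 and 8.42 percent of all genes), and against both, 10 were higher and 7 lower (14.5 and 12.4 percent). With siTsg101#2, 8 (11%) differed, against 20.7 percent of all genes. Here 7 were higher and 1 lower, against 11.6 and 9.09 percent. With siVps28#1 only RPL31 differed, against 9.45 percent of all genes, and it was higher (5.38 percent of all genes were higher and 4.07 percent lower). With siVps28#2, RPL15, RPL23 and RPL36A were lower (4.11%) and 0 genes higher, against 6.85 and 8.11 percent and 15 percent of all genes in either direction. The other nontargeting siRNA, siCtrl#2, gave 1 gene, RPLP0, which was lower (against 2.16 percent of all genes called, 1.45 percent higher and 0.715 percent lower). When a 1.5-fold change was also asked for, 10 and 6 genes were left with the siTsg101 siRNAs, against 21.8 and 17 percent of all genes. In the same way 1 gene each was left with siVps28#1, siVps28#2 and siCtrl#2, against 8.68, 13.3 and 2.09 percent. The difference between these shares and those of all genes was not tested. The median log2 fold change of the 73 genes was -0.13 and -0.03 for the siTsg101 siRNAs, 0.01 and -0.07 for the siVps28 siRNAs and -0.11 for siCtrl#2, where the medians of all tested genes lay within -0.01 and 0.02. With siCtrl#2 as reference these medians were -0.05 and 0.09 for siTsg101 and 0.13 and 0.06 for siVps28, so that those of siTsg101#2 and siVps28#2 turned in sign. Leaving out 1 library moved the median against siCtrl#1 between -0.11 and 0.03 for siTsg101#2 and between -0.06 and 0.07 for siVps28#1. With siTsg101#1 and siTsg101#2, 50 and 39 of the 73 had a fitted change below 0, with siVps28#1 and siVps28#2 34 and 50, and with siCtrl#2 58. Of all 10212 tested genes, 5160 and 5065 were below 0 with the siTsg101 siRNAs, and 5004 and 4949 with the siVps28 siRNAs. The median absolute log2 change was 0.24 and 0.22 with the siTsg101 siRNAs and 0.11 and 0.14 with the siVps28 siRNAs, against 0.35, 0.32, 0.25 and 0.28 over all genes.

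**Figure D3:**
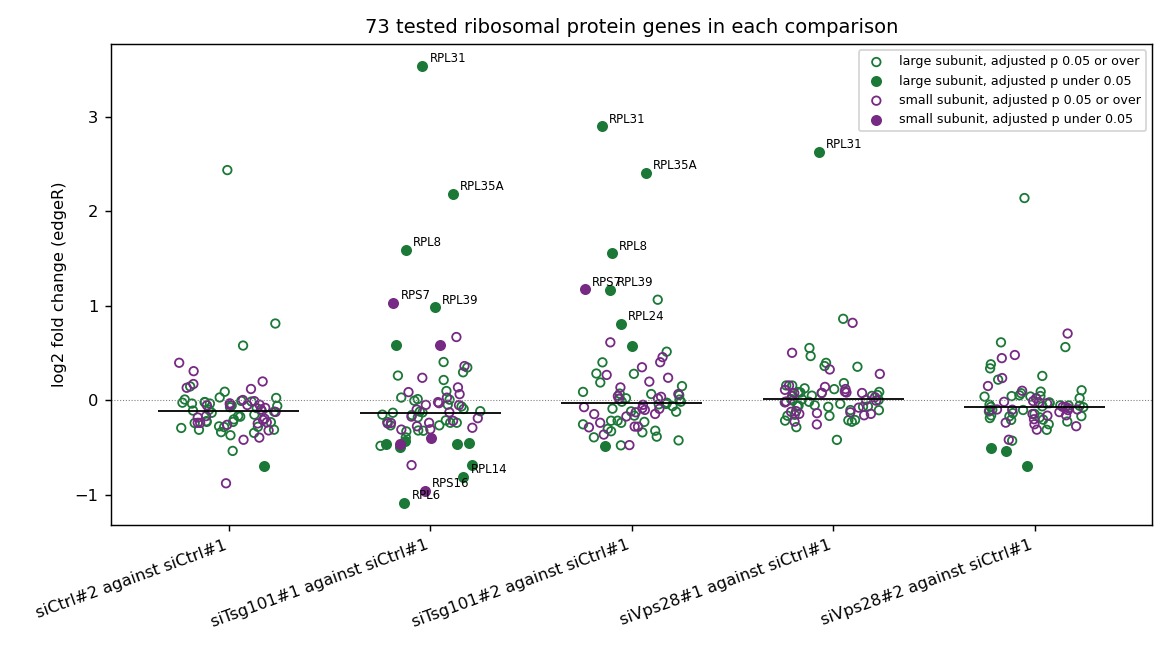
Log2 fold change against siCtrl#1 of the 73 tested ribosomal protein genes in each comparison, large subunit in green and small subunit in purple. Filled points passed an adjusted p of 0.05 in edgeR's quasi-likelihood test, the line is the median of the 73, and called genes beyond 0.8 on this scale are named. RPL35A, RPL8, RPL39 and RPS7 are filled with both siTsg101 siRNAs and with neither siVps28 siRNA.

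By subunit, 13 of 44 large subunit genes were called with siTsg101#1 (5 higher, 8 lower, 29.5%) and 5 of 29 small subunit genes (2 higher, 3 lower, 17.2%), against 26.3 percent of all genes. With siTsg101#2 the counts were 7 of 44 (15.9%) and 1 of 29 (3.45%), against 20.7 percent. The median log2 change was -0.14 for the large and -0.13 for the small subunit genes with siTsg101#1, and -0.02 and -0.05 with siTsg101#2. Both siTsg101 siRNAs called the same 6 genes higher (8.22%, against 8 percent of all genes), namely RPL8, RPL24, RPL31, RPL35A, RPL39 and RPS7, and the same 1 gene lower, RPL23 (1.37%, against 4.89 percent). Both siVps28 siRNAs agreed on 0 genes in either direction, against 4.24 percent of all genes called higher and 2.86 percent called lower by both. All 4 on-target siRNAs agreed on 0 genes, against 2.92 percent of all genes higher and 1.84 percent lower. Of the 73 genes, 20 were called by at least 1 of the 4 on-target siRNAs and 53 by none, against 38.1 and 61.9 percent of all genes. With the 4 on-target siRNAs averaged, 11 genes differed from siCtrl#1, against 23.8 percent of all genes. Of these, 6 were higher and 5 lower (12.2 and 11.5 percent of all genes), and 5 passed 1.5-fold (15.1 percent of all genes). With siCtrl#2 as reference this average gave 8 higher and 1 lower (8.33 and 7.91 percent of all genes), and with both nontargeting siRNAs 8 higher and 5 lower (15 and 13.7 percent). These comparisons share the siCtrl#1 libraries.

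RPL8, a large subunit protein close to the peptidyl transferase centre, rose with both siTsg101 siRNAs and not with siVps28. Its gene lies on chromosome 8 from 146015150 to 146017972 in GRCh37. It had 808, 625 and 660 CPM with siCtrl#1 and 986, 529 and 591 CPM with siCtrl#2. The siTsg101#1 libraries had 2056, 1934 and 2312 CPM and the siTsg101#2 libraries 1927, 2065 and 2156 CPM. Vps28 depletion left 672, 658 and 954 CPM (siVps28#1) and 973, 719 and 810 CPM (siVps28#2). All 6 siTsg101 libraries lay above all 12 others, with no overlap, which held for 2 of the 73 genes and for 2.29 percent of all tested genes. In 0 of the 73 genes did the 6 siTsg101 libraries lie below the other 12 (0.637 percent of all genes), or the 6 siVps28 libraries above or below the other 12 (0.196 and 0.0979 percent). RPL8 rose 3.01-fold with siTsg101#1 (log2 1.59, SE 0.20, adjusted p = 4.51e-06) and 2.94-fold with siTsg101#2 (log2 1.55, SE 0.20, adjusted p = 7.50e-06, edgeR). The log2 change with the siVps28 siRNAs was 0.13 and 0.26 (adjusted p = 0.77 and 0.43). The difference between Tsg101 and Vps28 depletion was itself tested and was 1.38 on the log2 scale (SE 0.14, adjusted p = 2.92e-07). Of its coding sequence, 11.4% had a copy elsewhere in the genome.

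RPL35A, a large subunit protein needed for maturation of the 60S subunit, was the other gene without overlap. Its gene lies on chromosome 3 from 197677061 to 197683481 in GRCh37. It had 12.9, 6.15 and 9.58 CPM with siCtrl#1 and 5.05, 8.42 and 11 CPM with siCtrl#2. The siTsg101#1 libraries had 32.3, 50.9 and 47.9 CPM and the siTsg101#2 libraries 41.7, 59.5 and 53.5 CPM. The siVps28#1 libraries had 12.2, 12.2 and 18.1 CPM and the siVps28#2 libraries 15.9, 12.4 and 9.55 CPM. The siTsg101 libraries were the 6 highest of the 18, while those of siVps28 overlapped with the nontargeting ones. RPL35A rose 4.54-fold with siTsg101#1 (log2 2.18, SE 0.28, adjusted p = 3.93e-06) and 5.30-fold with siTsg101#2 (log2 2.41, SE 0.27, adjusted p = 1.19e-06). Its log2 change was 0.55 and 0.38 with the siVps28 siRNAs (adjusted p = 0.27 and 0.42), and the difference between Tsg101 and Vps28 depletion was 1.83 (SE 0.19, adjusted p = 2.35e-07). It was counted with 20 to 382 reads per library, and 40.6% of its coding sequence had a copy elsewhere.

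RPL39, a short protein at the exit tunnel, and RPL24, which makes a bridge to the small subunit, rose with both siTsg101 siRNAs as well. RPL39 had 200 to 359 CPM in the 6 nontargeting libraries, 302 to 506 CPM in the 6 siVps28 libraries, and 385, 693, 698, 656, 589 and 776 CPM in the siTsg101 libraries, of which only the first, siTsg101#1 replicate 1, lay in the range of siVps28. Its log2 change was 0.98 (SE 0.24, adjusted p = 0.0042) and 1.17 (SE 0.24, adjusted p = 0.0013) with siTsg101 and 0.40 and 0.34 with siVps28 (adjusted p = 0.35 and 0.39), with a difference between the targets of 0.71 (SE 0.17, adjusted p = 0.0065). RPL24 had 316 to 561 CPM in the nontargeting, 351 to 642 CPM in the siVps28 and 576 to 887 CPM in the siTsg101 libraries. Its log2 change was 0.58 (SE 0.20, adjusted p = 0.039) and 0.81 (SE 0.20, adjusted p = 0.0067) with siTsg101 and 0.09 and 0.11 with siVps28 (adjusted p = 0.85 and 0.78). The difference between the targets was 0.60 (SE 0.14, adjusted p = 0.0073). The call of RPL24 with siTsg101#1 was lost without siCtrl#1 replicate 1 or 2 or siTsg101#1 replicate 2 or 3 (adjusted p up to 0.15). The whole coding sequence of both genes has copies, at 12 other places for RPL39 and 2 for RPL24.

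**Figure D4:**
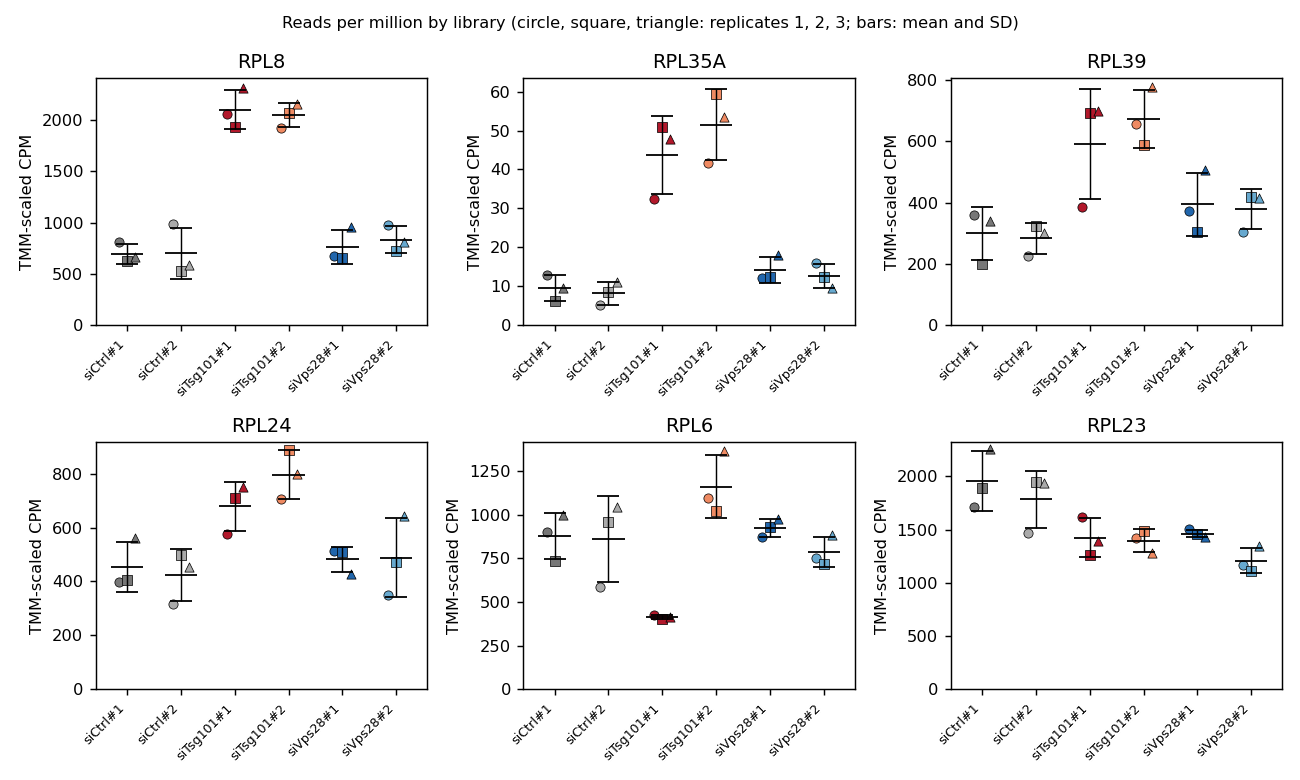
TMM-scaled CPM in each of the 18 libraries for RPL8, RPL35A, RPL39, RPL24, RPL6 and RPL23, with circles, squares and triangles for replicates 1, 2 and 3 and the mean with its SD as bars (n = 3). The 6 siTsg101 libraries lie above the other 12 for RPL8 and RPL35A, RPL6 is low in the 3 siTsg101#1 libraries, and RPL23 is lower in the on-target groups than with siCtrl#1.

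RPS7 and RPL31 rose with both siTsg101 siRNAs from few reads. RPS7, a small subunit protein also known to bind MDM2, had 4.27 to 8.84 CPM in the nontargeting, 9.0 to 13.7 CPM in the siTsg101 and 6.77 to 11.4 CPM in the siVps28 libraries. The lowest siTsg101 library lay just above the highest nontargeting one, from 14 to 95 reads per library over all groups. How many of all tested genes separate as RPS7 did was not counted. Its log2 change was 1.03 and 1.18 with siTsg101 (adjusted p = 0.010 and 0.0040) and 0.82 and 0.71 with siVps28 (adjusted p = 0.081 and 0.099, the first being 0.040 with the replicate number as a block), and Tsg101 and Vps28 depletion did not pass the test against each other (0.34, adjusted p = 0.26). Against siCtrl#2 the change with siTsg101#1 was 0.72 and did not pass (adjusted p = 0.074), and that with siTsg101#2 was 0.87 and passed (adjusted p = 0.029). RPL31 was counted with 1, 0 and 2 reads in the siCtrl#1 libraries, 17 reads in all with siCtrl#2, 37 and 34 with the siTsg101 siRNAs and 18 and 19 with the siVps28 siRNAs. Per counted read this is 12.9 times siCtrl#1 with siTsg101#1 (95% interval 4.10 to 65.6) and 6.02 times with siCtrl#2 (1.74 to 32.1), the intervals covering counting error only. RPL31 was called against siCtrl#1 with 3 of the on-target siRNAs, and with siCtrl#2 as reference with 0 of them (adjusted p = 0.10 to 0.90). Its exons overlap TBC1D8 on the other strand by 56 bases.

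RPL23, a large subunit protein known to bind MDM2, was called lower with both siTsg101 siRNAs and with siVps28#2. It had 1710, 1893 and 2260 CPM with siCtrl#1 and 1470, 1942 and 1938 CPM with siCtrl#2. With the siTsg101 siRNAs it had 1256 to 1618 CPM and with the siVps28 siRNAs 1113 to 1501 CPM. All 12 on-target libraries lay below the 3 of siCtrl#1, but 3 of them lay above the lowest siCtrl#2 library. How many of all tested genes separate from siCtrl#1 as RPL23 did was not counted. Its log2 change was -0.46 (SE 0.15, adjusted p = 0.029) and -0.49 (SE 0.15, adjusted p = 0.026) with siTsg101 and -0.42 (SE 0.15, adjusted p = 0.089) and -0.69 (SE 0.15, adjusted p = 0.0030) with siVps28. Averaged over the 4 on-target siRNAs it fell by 0.51 on the log2 scale (SE 0.12, adjusted p = 0.0023), and by 0.38 against siCtrl#2 (adjusted p = 0.027). Taken singly against siCtrl#2, siVps28#2 passed (adjusted p = 0.020) and the siTsg101 siRNAs did not (adjusted p = 0.14 and 0.11). Both siTsg101 calls were also lost with total-count scaling and without siCtrl#1 replicate 3, that of siTsg101#1 without its replicate 2 or 3, and that of siTsg101#2 without its replicate 1 or 3. RPL18, RPL15 and RPL4 fell in the same average by 0.38, 0.37 and 0.34 on the log2 scale (adjusted p = 0.018, 0.038 and 0.038, edgeR). None of these 3 passed against siCtrl#2 (log2 change -0.18, -0.26 and -0.17, adjusted p = 0.32, 0.19 and 0.37). RPL15 passed with siTsg101#1 at an adjusted p of 0.0499, and 19 of 28 alternatives lost that call.

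RPL13 and RPS16 had fewer reads after Tsg101 depletion than after Vps28 depletion, with the 2 siRNAs of each target averaged. The SE and p of this comparison rest on the spread of libraries within each siRNA. They do not cover differences between the siRNAs of a target. RPL13, a large subunit protein, had 536, 739 and 905 CPM with siTsg101#1 and 797, 726 and 1088 CPM with siTsg101#2. It had 1072 to 1309 CPM in the nontargeting and 1072 to 1509 CPM in the siVps28 libraries. The log2 difference between the targets was -0.64 (SE 0.13, adjusted p = 0.0017), with -0.68 for siTsg101#1 (adjusted p = 0.0086) and -0.42 for siTsg101#2 (adjusted p = 0.11, and 0.026 with the replicate number as a block) against siCtrl#1. Without siTsg101#1 replicate 1 the siTsg101#1 call of RPL13 was lost (adjusted p = 0.064). RPS16, a small subunit protein, had 1945, 2348 and 2319 CPM with siTsg101#1 and 3170, 2919 and 3166 CPM with siTsg101#2. It had 3084 to 4562 CPM in the nontargeting and 2753 to 5139 CPM in the siVps28 libraries. All siTsg101#2 values lay within this siVps28 range. The log2 change of RPS16 was -0.96 with siTsg101#1 (SE 0.18, adjusted p = 0.00037) and -0.47 with siTsg101#2 (SE 0.18, adjusted p = 0.060). The difference between the targets was -0.45 (adjusted p = 0.020). In this comparison of the targets 8 of the 73 genes passed (11%, against 11.8 percent of all genes), 6 higher and 2 lower after siTsg101 (6.56 and 5.26 percent of all genes), and 5 passed 1.5-fold (6.23 percent). The others were RPL37 and RPS28, outside the rule for named genes, at 0.39 each (adjusted p = 0.031 and 0.026), beside RPL8, RPL35A, RPL39 and RPL24. RPL31, RPL14, RPL9 and RPS29 were also among the 5 most extreme in either direction, with log2 differences of 0.83, -0.36, -0.51 and -0.38, and did not pass (adjusted p = 0.097, 0.17, 0.30 and 0.079). With the block RPS29 passed (adjusted p = 0.016). The value of RPL9 includes the low library described below.

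The 2 siTsg101 siRNAs differed from each other in 2 of the 73 genes (2.74%, against 7.96 percent of all genes), RPL6 and RPL14, both large subunit proteins. Both were lower with siTsg101#1 and passed 1.5-fold (6.99 percent of all genes passed it, with 4.24 percent lower and 3.72 percent higher). RPL6 was chosen for description after its values were seen. It had 426, 402 and 415 CPM with siTsg101#1 and 1096, 1022 and 1368 CPM with siTsg101#2. It had 584 to 1047 CPM in the nontargeting and 721 to 976 CPM in the siVps28 libraries. Exons of RPL6 overlap PTPN11 on the other strand by 111 bases in the gene models. The log2 difference between the siTsg101 siRNAs was -1.49 (SE 0.19, adjusted p = 2.22e-05), with -1.09 for siTsg101#1 (SE 0.18, adjusted p = 0.00013) and 0.40 for siTsg101#2 (SE 0.18, adjusted p = 0.12) against siCtrl#1. TSG101 itself was at 3.27 to 4.75 CPM with siTsg101#1 and 2.49 to 4.99 CPM with siTsg101#2. RPL14 had 13.1, 16 and 15.4 CPM with siTsg101#1 and 27.6, 24.6 and 25.8 CPM with siTsg101#2, a log2 difference of -0.80 (SE 0.24, adjusted p = 0.038). The 2 siVps28 siRNAs differed in 0 of the 73 genes by edgeR (against 0.48 percent of all genes, 0.215 percent higher and 0.264 percent lower), in 1 gene at an unadjusted p under 0.05, and in 1 gene by DESeq2.

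Among the stalk proteins, RPLP0, RPLP1 and RPLP2, which recruit the elongation factors, no gene passed with any on-target siRNA. RPLP0 had 7033, 7182 and 7398 CPM with siCtrl#1 and 5236, 3965 and 4160 CPM with siCtrl#2, and fell by 0.69 on the log2 scale between the nontargeting siRNAs (SE 0.16, adjusted p = 0.023). The on-target libraries lay between 4970 and 7680 CPM. RPLP1 and RPLP2 had log2 changes of -0.06 and -0.20 in the average of the 4 on-target siRNAs (adjusted p = 0.78 and 0.47). RPL5 and RPL11, which as part of a 5S particle can bind MDM2, had -0.07 and -0.08 (adjusted p = 0.72 and 0.68). RPS6, the substrate of S6 kinase, had -0.15 (adjusted p = 0.39). RPS27A, a small subunit protein made as a fusion with ubiquitin, had 0.37 (adjusted p = 0.16), with 0.61 for siTsg101#2 (adjusted p = 0.061, and 0.041 with the block).

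Of the paralogs with a final L, RPS27L and RPL36AL had enough reads to be tested. RPS27L, known as a p53 target, had 1.49 to 3.40 CPM in the 6 nontargeting libraries and 3.43 to 6.72 CPM in the 12 on-target libraries. The ranges did not touch, which held for 1 of the 73 genes in this direction and for 1.96 percent of all tested genes, and for 0 of the 73 in the other direction (1.19 percent). The log2 change was 0.67, 0.40, 0.50 and 0.45 with the 4 on-target siRNAs, from 6 to 41 reads per library, and no comparison against siCtrl#1 passed (adjusted p = 0.15 to 0.42). Its parental gene RPS27 had 0.15 in the average (adjusted p = 0.56). RPL36AL rose with siTsg101#2 (log2 0.57, SE 0.17, adjusted p = 0.017) and in the average of the 4 (0.37, SE 0.13, adjusted p = 0.047). The call in the average was lost under 16 of 28 alternatives, among them siCtrl#2 as reference (adjusted p = 0.080), RLE scaling and no low-count filter, and that of siTsg101#2 without siCtrl#1 replicate 2 or 3 or siTsg101#2 replicate 2. RPL36A fell with siVps28#2 by 0.53 (adjusted p = 0.010), with 971, 875 and 841 CPM against 1223, 1288 and 1376 CPM with siCtrl#1, and did not pass against siCtrl#2 (adjusted p = 0.21). RPL3 and RPL10, the parental genes of RPL3L and RPL10L, had -0.31 and -0.11 in the average (adjusted p = 0.11 and 0.55).

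Single libraries fell out of line for a few genes. RPS21 had 372 reads, or 51.9 CPM, in siTsg101#1 replicate 3, where the other 17 libraries had 594 to 965 CPM. RPS26 had 22 reads, or 4.24 CPM, in siCtrl#2 replicate 3, against 38.4 to 118.2 CPM elsewhere. RPL9 had 9 reads, or 3.68 CPM, in siTsg101#1 replicate 1, against 20.9 CPM or more elsewhere. RPL34 had 0 reads in siVps28#2 replicate 3, which allows at most 0.489 CPM, against 2.36 to 8.48 CPM elsewhere. None of these 4 genes passed in any comparison, and each low value occurred in 1 replicate of its group only.

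Genes that work with the ribosome were measured in the same libraries. Of 6 tested ribosomal subunits and paralogs outside the symbol rule, only RPL22L1 passed, higher with siTsg101#1 and siTsg101#2 (log2 0.93 and 1.16, adjusted p = 0.0019 and 0.00032) and not with siVps28 (0.31 and 0.17, adjusted p = 0.40 and 0.65). With each siTsg101 siRNA this is 16.7% of the 6, against 26.3 and 20.7 percent of all genes. With siVps28 it is 0%, against 9.45 and 15 percent. FAU, RACK1 and RPL26L1 had -0.15, -0.01 and -0.07 in the average of the 4 on-target siRNAs. Of 24 translation factors and other TOP mRNAs, 5 passed with siTsg101#1 and 3 with siTsg101#2 (20.8% and 12.5%, against 26.3 and 20.7 percent of all genes). With either siVps28 siRNA 0 passed, against 9.45 and 15 percent of all genes. EIF4B, which assists the helicase EIF4A in scanning, rose by 2.25 and 2.07 with siTsg101 (adjusted p = 6.2e-07 and 2.0e-06), and had 0.27 and 0.68 with siVps28 (adjusted p = 0.56 and 0.056). NAP1L1, a histone chaperone with a TOP mRNA, rose with siTsg101#2 (0.80, adjusted p = 0.0034). EIF3L fell with siTsg101#1 by 0.73 (adjusted p = 0.0046), and EEF1D with both by 0.61 and 0.57 (adjusted p = 0.030 and 0.0495). The TOP mRNAs TPT1, EEF1A1, EEF2 and PABPC1 had 0.27, -0.12, -0.25 and -0.07 in the average and did not pass.

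Of 72 tested ribosome biogenesis factors, 4 were higher and 12 lower for siTsg101#1, and 4 were higher and 4 lower for siTsg101#2. These are 22.2% and 11.1% of the list, against 26.3 and 20.7 percent of all genes. By direction, 13.8 and 12.5 percent of all genes were higher and lower for siTsg101#1, and 11.6 and 9.09 percent for siTsg101#2. For siVps28#1, 2 were higher and 0 lower, and for siVps28#2, 2 were higher and 2 lower (2.78% and 5.56%, against 9.45 and 15 percent). In the average of the 4 on-target siRNAs 9 passed, 4 higher and 5 lower, with a median log2 change of -0.05. Of all genes 23.8 percent passed there, 12.2 percent higher and 11.5 percent lower. EBNA1BP2 and MRTO4, which act in maturation of the large subunit, fell by 0.64 and 0.58 on the log2 scale (adjusted p = 0.00021 and 0.0021), and UTP14A, of the small subunit processome, rose by 0.67 (adjusted p = 0.022). GNL3L had 0.75 in the average (adjusted p = 0.29) and rose by 2.21 and 2.01 with siTsg101 (adjusted p = 0.0016 and 0.0041). Of 15 regulators of ribosomal protein synthesis, 3 and 1 passed for the siTsg101 siRNAs in turn (20% and 6.67%, against 26.3 and 20.7 percent of all genes). For the siVps28 siRNAs 0 and 2 passed (0% and 13.3%, against 9.45 and 15 percent). EIF4EBP1, the translational repressor that mTORC1 phosphorylates, fell in the average by 0.62 (adjusted p = 0.0014) and was the only one to pass there. MTOR, the kinase of that complex, fell with siTsg101#1 by 0.53 (adjusted p = 0.014) and was lower after siTsg101 than after siVps28 by 0.42 (adjusted p = 0.013). EIF4E, the cap-binding factor that EIF4EBP1 holds, rose with siTsg101#1 by 0.48 (adjusted p = 0.045). RHEB, the activator of mTORC1, rose with siVps28#2 by 0.58 (adjusted p = 0.025) and had 0.37 in the average (adjusted p = 0.063). MTOR and EIF4E are named outside the rule for named genes. MYC, which activates ribosome genes, had -0.04 in the average, LARP1 -0.07, LARP1B 0.77 and RPS6KB1 -0.23, and none of these passed there (adjusted p = 0.87, 0.72, 0.24 and 0.39).

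The 74 mitochondrial ribosomal protein genes, which encode a separate ribosome, held 0.502% to 0.583% of counted reads, and 73 were tested. In the siTsg101#1 comparison 18 of the 73 passed (10 higher, 8 lower) and in that of siTsg101#2 14 (24.7% and 19.2%, against 26.3 and 20.7 percent of all genes). The siVps28 siRNAs gave 3 and 2 (4.11% and 2.74%, against 9.45 and 15 percent), and the median log2 change lay between -0.11 and -0.02 in these comparisons. MRPL34 rose by 2.60 and 2.76 with siTsg101 (adjusted p = 9.1e-06 and 3.9e-06) and had 0.66 and 0.48 with siVps28 (adjusted p = 0.36 and 0.47). MRPL35 rose by 1.39 and 1.62 with siTsg101 (adjusted p = 0.0048 and 0.0012). MRPL1 and MRPL23 fell in the average of the 4 on-target siRNAs by 0.82 and 0.74 (adjusted p = 0.027 and 0.0018).

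Set against the promoters, the 41 tested ribosomal protein genes with a TOP-like start had a median log2 change of -0.12 with siTsg101#1, and the 18 with another start -0.23. With siTsg101#2 the medians were 0.01 and -0.03. The order was the other way with siVps28#1 (0.01 and 0.08), siVps28#2 (-0.07 and 0.01) and siCtrl#2 (-0.17 and -0.05). Another 14 tested genes, RPL8, RPL23 and RPL37 among them, had no promoter in the table. Their medians were -0.18 and -0.08 with the siTsg101 siRNAs, -0.11 and -0.10 with the siVps28 siRNAs and -0.18 with siCtrl#2. In the average of the 4 on-target siRNAs the medians were -0.04 and -0.06 for the 41 and the 18. Of the 41, 3 were higher and 2 lower, and of the 18, 2 were higher and 2 lower. Of all tested genes, 12.2 percent were higher and 11.5 percent lower there. The 602 other tested genes with a TOP-like start had a median of 0.03 in that average, and 20.6% of them passed, against 23.8 percent of all genes. Among the tested ribosomal protein genes with a promoter, the 3 that hold AAGATGGCG were RPL24, RPL35A and RPS28. All 3 were among the 6 higher ones between Tsg101 and Vps28 depletion, of which RPL8 and RPL37 had no promoter to search. In all 3 AAGATGGCG stands on the strand opposite to the transcript, at bases 10 to 18 from the start in RPL24, 11 to 19 in RPL35A and -143 to -135 in RPS28. In RPL24 its outermost base is the last of the pyrimidine run printed above. Of 445 other tested genes with these letters, 24 (5.39%) were higher in that comparison, against 6.56 percent of all genes. The split by this motif was looked at with the values known and has no test.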

How the data were processed

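Per the labels and the study's methods, the libraries were prepared with the Ion AmpliSeq Transcriptome panel, sequenced on an Ion Proton, aligned with TMAP to the panel's hg19 reference and counted with HTSeq 0.6.0, and the labels also name DESeq2 1.18.1. The authors deposited raw counts of reads per RefSeq transcript, without normalization. RefSeq identifiers were mapped to symbols for 20228 of 20802 rows. As in the study, rows with more than 100 counts over all libraries and a coding accession were tested (10212). Counts were scaled by TMM and fitted with edgeR 4.0.16 (R 4.3.3) in 1 model of 6 groups, and called at a Benjamini-Hochberg adjusted p under 0.05. SE is the log2 change divided by the root of its F statistic. Comparisons that average siRNAs take their SE from libraries within each siRNA, so that differences between siRNAs of a target are not covered. CPM are TMM-scaled and use the reads on tested genes, save where counted reads are named. Shares used all counted reads of a library. The fit was run on simulated counts drawn independently for each library, which cannot show how it handles effects shared by a replicate number. The replicate number is the batch in the labels, each batch holding 6 libraries, 1 of each group, and it pairs the libraries by label. Deviations of same-numbered libraries correlated by 0.145 on average (45 pairs, -0.148 to 0.389). Replicates of a group differed by more than counting noise in all 18 pairs. Genes were named by rule: the 5 highest and 5 lowest members in the average of the 4 on-target siRNAs and between the targets, members called at 1.5-fold with several siRNAs, stalk proteins, L-paralogs with parental genes, 4 proteins of known extra roles, and 2 highest and lowest genes of each other list. Members, lists and rules were chosen with earlier results of these data known. Copies of coding sequence were sought with BLAST at 95% identity over at least 80 bases in GRCh37, with GENCODE 44 models. Promoter sequences are from RefSeq, GRCh38.p14. Alternatives were DESeq2 1.42.0, RLE and total-count scaling, other filters and references, a 1.5-fold limit, the replicate block, fits of the compared groups only, and each library left out. Strand use in counting and amplicon positions are not given in the sources used here. Values of some genes are not reported here.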

Additional observations from a re-analysis of the deposited data

Results flagged for a closer look

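Reads below the counting program's mapping quality limit, which enter no count, made up 5.50% of all reads on average in the 6 siTsg101 libraries (5.29% to 5.68%), above the 4.85% to 5.06% of the nontargeting libraries, in 6 of 6 libraries. The part of ribosomal protein genes in these reads was not tested.

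Between Tsg101 and Vps28 depletion, with the 2 siRNAs of each target averaged, the difference was itself tested and passed for 8 ribosomal protein genes. Its p does not cover differences between the siRNAs of a target. On the log2 scale RPL35A was higher after siTsg101 by 1.83, RPL8 by 1.38, RPL39 by 0.71, RPL24 by 0.60, RPL37 by 0.39 and RPS28 by 0.39, and the values of RPL13 and RPS16 were -0.64 and -0.45. The calls of RPL35A, RPL8, RPL39, RPL24 and RPL13 held under all 26 alternatives, and those of RPL37, RPS28 and RPS16 were lost under 8, 5 and 3 of them, each time with a library left out.

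Between the siTsg101 siRNAs, siTsg101#1 was lower for RPL6, at -1.49, and for RPL14, at -0.80. RPL6 held under all 26 alternatives and RPL14 was lost under 6, each with a library left out.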

How the results depend on the processing

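The counts of called ribosomal protein genes moved by more than 1.5 times under the following settings. At 1.5-fold, 10 instead of 18 were left with siTsg101#1, 1 instead of 3 with siVps28#2, 5 instead of 11 in the average of the 4 on-target siRNAs and 5 instead of 8 between the targets. The replicate block gave 2 instead of 1 with siVps28#1, RPS7 being added (adjusted p = 0.040), and otherwise 20, 12, 4, 12 and 10 with siTsg101#1, siTsg101#2, siVps28#2, the average and between the targets, where it lost no call. A fit of only the groups compared gave 13 instead of 8 with siTsg101#2 and 0 instead of 1 for siCtrl#2. At least 10 counts in every library, siCtrl#2 as reference, or both nontargeting siRNAs as reference each gave 0 instead of 1 with siVps28#1, where the call is RPL31. With total-count scaling the calls were 7 higher and 0 lower with siTsg101#2, and 1 higher and 4 lower (5 in all) with siVps28#2, and siCtrl#2 as reference gave 1 with siVps28#2. Without the low-count filter siCtrl#2 gave 2 and the siTsg101 siRNAs differed in 4, and DESeq2 gave 1 between the siVps28 siRNAs. With one library left out the counts ranged from 10 to 21 with siTsg101#1, 6 to 12 with siTsg101#2, 0 to 1 with siVps28#1, 2 to 4 with siVps28#2, 0 to 1 for siCtrl#2, 5 to 12 in the average, 5 to 9 between the targets, 1 to 2 between the siTsg101 siRNAs, and stayed at 0 between the siVps28 siRNAs. The lowest counts came without siCtrl#1 replicate 3 or siTsg101#1 replicate 2 (10 with siTsg101#1), without siCtrl#1 replicate 2 (5 in the average; 7 without replicate 3) and without siTsg101#1 replicate 1 (5 between the targets). RPL31 lost its call with siVps28#1 without siCtrl#1 replicate 1 or 2 or siVps28#1 replicate 3, and by DESeq2, whose 1 call there was another gene that was lower. The share differences were -0.803 and -0.673 points against siCtrl#1 alone and 0.276 and 0.407 against siCtrl#2 alone. With one library left out they ranged from -0.470 to -0.00475 for siTsg101, -0.298 to 0.126 for siVps28 and -0.337 to 0.0352 between the targets. The log2 ratio of the subunits ranged from 0.01 to 0.04, -0.03 to -0.002 and 0.03 to 0.06. No fitted change of a called gene reversed its sign. The causes were not tested.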
